A study of Homo sapiens with 8 samples.

Results

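The 41 genes described here encode the enzymes and transporters of glycolysis and gluconeogenesis and a set of targets of the hypoxia-inducible factors (HIF). They were chosen by gene symbol, and 39 of the 41 were among the 17561 genes of the expression table, while PKLR and LDHB were not analysed here. The members with values comprised 5 glucose and lactate transporters, 16 glycolytic enzymes, 3 gluconeogenic enzymes, 3 HIF targets that regulate glycolysis and 12 other HIF targets. Expression was measured by RNA-seq in HepG2, an established human hepatocarcinoma cell line, 48 h after transient transfection with pGRHL2 or with the empty control vector pcDNA3, with 4 libraries per plasmid. pGRHL2 carries a flag-tagged cDNA of the epithelial transcription factor GRHL2 under the EEF1A1 promoter and also directs the synthesis of enhanced GFP, which the control vector does not, and the parts played by GRHL2 and by the rest of the construct cannot be told apart. Cells of both groups were grown in the same medium on gelatin, with serum, insulin and dexamethasone. No group was placed under low oxygen according to the labels, so the comparison asked whether forced GRHL2 expression changed the mRNA levels of these genes, and not how they respond to hypoxia.

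In glycolysis, glucose enters the cell through GLUT transporters, is phosphorylated by hexokinase and is split and oxidised to pyruvate, which lactate dehydrogenase can reduce to lactate for export. Gluconeogenesis, a task of hepatocytes, runs toward glucose and bypasses the irreversible steps with pyruvate carboxylase, PEP carboxykinase, fructose bisphosphatase and glucose-6-phosphatase. In hypoxia, the HIF alpha subunits escape hydroxylation by the EGLN enzymes and the degradation that VHL directs, pair with ARNT, and bind sites with the core RCGTG (R for A or G) near many glycolytic genes.

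The promoters of 4 members are shown because each carries that core within 250 bases before the start site. They include KDM3A, the member with the smallest p-value in the comparison below, beside 3 textbook HIF targets. The promoter of EGLN3 was also read, held 0 matches and is not printed. A further start of KDM3A and a further start of LDHA, each with 1 match, are not printed either. Each line gives the 250 bases before a RefSeq transcription start (GRCh38.p14), read 5′ to 3′ on the strand of the gene, with ACGTG or GCGTG on either strand in capitals (read as CACGT or CACGC on the other strand, the palindrome CACGTG holding a match on both). KDM3A was read from chr2:86441121-86441370 (plus strand) and held 1 match, PGK1 from chrX:78103998-78104247 (plus strand) with 3 matches, LDHA from chr11:18394313-18394562 (plus strand) with 5 matches, and BNIP3 from chr10:131981924-131982173 (minus strand) with 6 matches.
KDM3A: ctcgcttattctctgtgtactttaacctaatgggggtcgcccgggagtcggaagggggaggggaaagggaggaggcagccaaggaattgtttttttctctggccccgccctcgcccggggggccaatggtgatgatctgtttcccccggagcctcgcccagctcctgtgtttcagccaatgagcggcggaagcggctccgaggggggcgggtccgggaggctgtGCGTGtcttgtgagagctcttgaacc
PGK1: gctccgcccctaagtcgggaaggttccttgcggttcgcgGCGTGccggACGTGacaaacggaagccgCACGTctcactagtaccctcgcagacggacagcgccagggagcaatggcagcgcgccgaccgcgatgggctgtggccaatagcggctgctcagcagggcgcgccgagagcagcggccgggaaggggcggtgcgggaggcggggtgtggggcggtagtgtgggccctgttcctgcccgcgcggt
LDHA: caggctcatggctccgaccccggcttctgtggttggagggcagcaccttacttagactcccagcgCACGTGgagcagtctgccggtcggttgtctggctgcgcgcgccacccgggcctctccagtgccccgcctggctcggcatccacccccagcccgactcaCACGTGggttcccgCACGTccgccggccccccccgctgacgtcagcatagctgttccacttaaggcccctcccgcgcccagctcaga
BNIP3: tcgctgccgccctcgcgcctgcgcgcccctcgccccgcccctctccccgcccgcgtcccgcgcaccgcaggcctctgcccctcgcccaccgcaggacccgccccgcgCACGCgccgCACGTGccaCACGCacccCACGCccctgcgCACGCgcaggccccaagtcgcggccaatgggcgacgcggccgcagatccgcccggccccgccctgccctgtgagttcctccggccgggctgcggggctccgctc
Promoters were found for 33 of the 39 members, 62 promoters in all. ACGTG occurred in 38.7% of these 62 and in 18.5% of all 35116 promoters of the same table, whereas GCGTG occurred in 32.3% and 32.2%, respectively. At least 1 of these forms occurred in 59.7% of the 62 and in 43.2% of all promoters. The motif AACCGGTT, a palindromic form of the GRHL recognition sequence, occurred in 0 of the 62 member promoters and in 0.117% of all promoters. It is too rare in such windows for a count over 62 promoters to be informative. These are counts of letters in a short window and not of bound sites.

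Each value of the table was on a log2 scale and per mean transcript length. For every gene, the mean over a pGRHL2 library and the pcDNA3 library of the same number was the same for all 4 numbers, so that the paired libraries mirrored each other and the values carried information on the difference within a pair only. Differences are therefore given as the mean of the 4 pair differences, pGRHL2 minus pcDNA3, ± SD over pairs. The groups fail to overlap exactly where all 4 pair differences have the same sign. The table held no read counts, which leaves the depth behind a value unknown and sets no detection limit. The transfected gene GRHL2 was higher by 9.48 ± 0.57 (log2, n = 4 pairs) in the pGRHL2 libraries. The hepatocyte markers ALB, AFP, APOA1, TTR, SERPINA1 and HNF4A lay between 9.83 and 17.1. Of 12 markers of endothelial, immune and fibroblast cells, 6 had values. VWF lay at 1.91, CD14 at 4.02, PECAM1 at 5.43, COL1A1 at 5.83 and ACTA2 at 8.14 (36.2% of its exon bases shared with another gene), and LYZ lay at 13.3 with 34.7% of its exon bases shared. CDH5, KDR, PTPRC, CD68, COL3A1 and DCN were not analysed here. The largest difference among these markers was that of COL1A1, which lay higher with pGRHL2 in 4 of 4 pairs, by 0.20 ± 0.10 (adjusted p = 0.084). No marker passed the test.

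The levels of the members ranged from PCK1 at 2.06 to ENO1 at 15.2, with a median of 9.40 against 6.72 over all genes. Levels of different genes are compared here per transcript length. Several enzymes from triose phosphate to lactate had high levels. ENO1 (enolase) lay at 15.2, LDHA (lactate dehydrogenase) at 14.3, GAPDH at 14.2, PKM (pyruvate kinase) at 13.8, TPI1 (triose phosphate isomerase) at 13.1, PGAM1 (phosphoglycerate mutase) at 12.9 and PGK1 (phosphoglycerate kinase) at 12.2, whereas ENO2, the enolase named for neurons, lay at 10.17. Of the glucose transporters, SLC2A1 (GLUT1) lay at 14.1 and SLC2A3 (GLUT3) at 12.2, whereas SLC2A2 (GLUT2), the transporter of hepatocytes, lay at 6.74.

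At the hexokinase step, HKDC1, a further hexokinase that is no member, lay at 10.44, HK2 at 9.69 and HK1 at 5.79. At the phosphofructokinase step the order was PFKP (9.40), PFKL (8.99) and PFKM (5.07). Among the aldolases, ALDOC lay at 7.30 and ALDOA at 4.35, but 54.2% of the exon bases of ALDOA are shared with another annotated gene, so its level is uncertain. GAPDH, ENO1, LDHA, TPI1 and PGAM1 have many processed pseudogenes, and reads that match these could have been lost.

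The gluconeogenic enzymes spanned high and low levels. PC (pyruvate carboxylase) lay at 9.17 and PCK2, the mitochondrial PEP carboxykinase, at 11.04, whereas the cytosolic PCK1 lay at 2.06, FBP1 (fructose bisphosphatase) at 2.34 and G6PC1 (glucose-6-phosphatase) at 3.13. G6PC3, the glucose-6-phosphatase found in most tissues, lay at 9.19, with 23.9% of its exon bases shared with another gene. The 15 members grouped here as HIF targets lay between 3.11 for CA9 (a carbonic anhydrase of the cell surface) and 10.6 for BNIP3 (a mitophagy receptor). PGK1 and LDHA, named above as HIF targets, are grouped with the glycolytic enzymes and lay higher. In the order of all these levels, the libraries of several neighbouring genes overlapped. Examples are LDHA, GAPDH and SLC2A1, then PGK1 and SLC2A3, and also PC and G6PC3. PFKP, PFKL and PFKM did not overlap with one another, nor did ALDOC and ALDOA. The spread over libraries is understated here, since the values hold no differences between pair means.

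**Figure D1:**
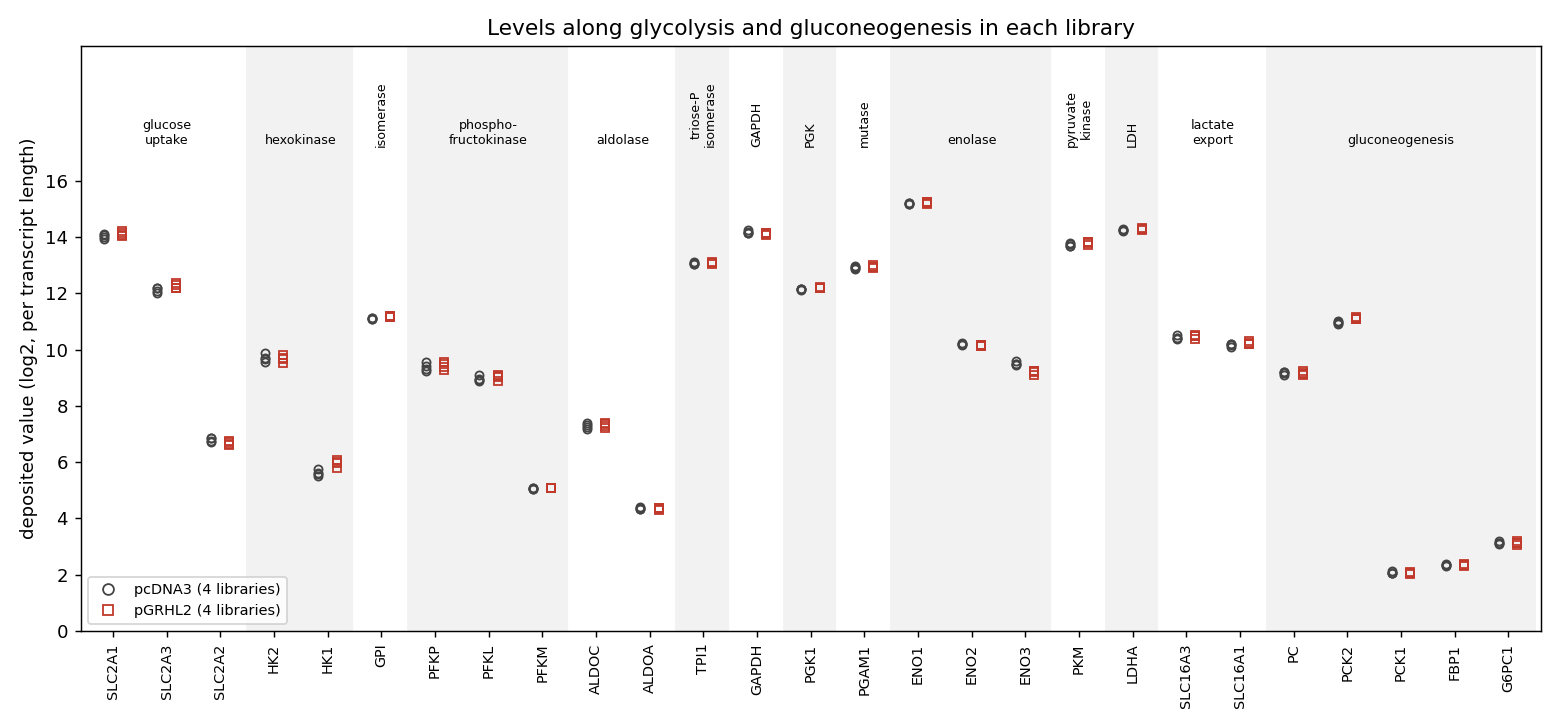
Deposited values (vertical axis, log2 per transcript length) of genes along glucose uptake, glycolysis, lactate export and gluconeogenesis (horizontal axis), with circles for the 4 pcDNA3 and squares for the 4 pGRHL2 libraries. The plasmids are hard to separate at this scale, whereas the genes range from PCK1 at 2.06 to ENO1 at 15.2.

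In the comparison of pGRHL2 with pcDNA3, 0 of the 39 members passed the test in either direction (limma blocked on replicate number, adjusted p under 0.05 over all 17561 genes). Over all genes, 1.69% were called higher and 0.501% lower. At an unadjusted p under 0.05, limma gave 3 members, or 7.69%, with KDM3A lower and HK1 and EGLN3 higher, against 16.0% of all genes. The groups did not overlap for 9 members, or 23.1%, against 24.0% of all genes. Each of these shares was under its background, but the backgrounds are not matched for level. The median level was 9.40 over the members and 6.72 over all genes, and 33 members lay at 5 or more. Among genes with a mean of at least 5, 63 were called higher and 81 lower, and 1 of the 33 members (KDM3A) was called lower. The number of all genes in that set is not given here. Whether the members stayed under the background there therefore cannot be read from these counts. The count of called members was 0 to 6 under the other settings tried (4 higher and 2 lower without the block), which are given below with the other effects of processing.

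The differences of the members were also small. Their median was 0.03 (log2), against 0.0017 over all genes, and the median absolute difference was 0.05 against 0.04. The mean difference was positive in 26 of 39 members and in 9042 of all 17561 genes. In 30 of 39 members the difference was smaller than the SD over its pairs, against 13000 of all 17561 genes, a similar share. The 95% interval lay within 0.25 of 0 (log2) in 28 members, or 71.8%, against 81.7% of all genes. It lay within 0.5 in 38 members, all but HK1, against 99.1% of all genes. Intervals from limma borrow the spread of other genes. For members such as HK1, NDRG1 and DDIT4 (SD over pairs of 0.23, 0.38 and 0.29) the pairs varied more than the interval implies. Because the RNA came from whole dishes after transient transfection, a small change in every cell and a larger change in some cells cannot be told apart. The transformation applied by the authors shrinks differences of weakly expressed genes, and 6 members lay below 5: ALDOA, PCK1, FBP1, EGLN3, CA9 and ANKRD37.

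**Figure D2:**
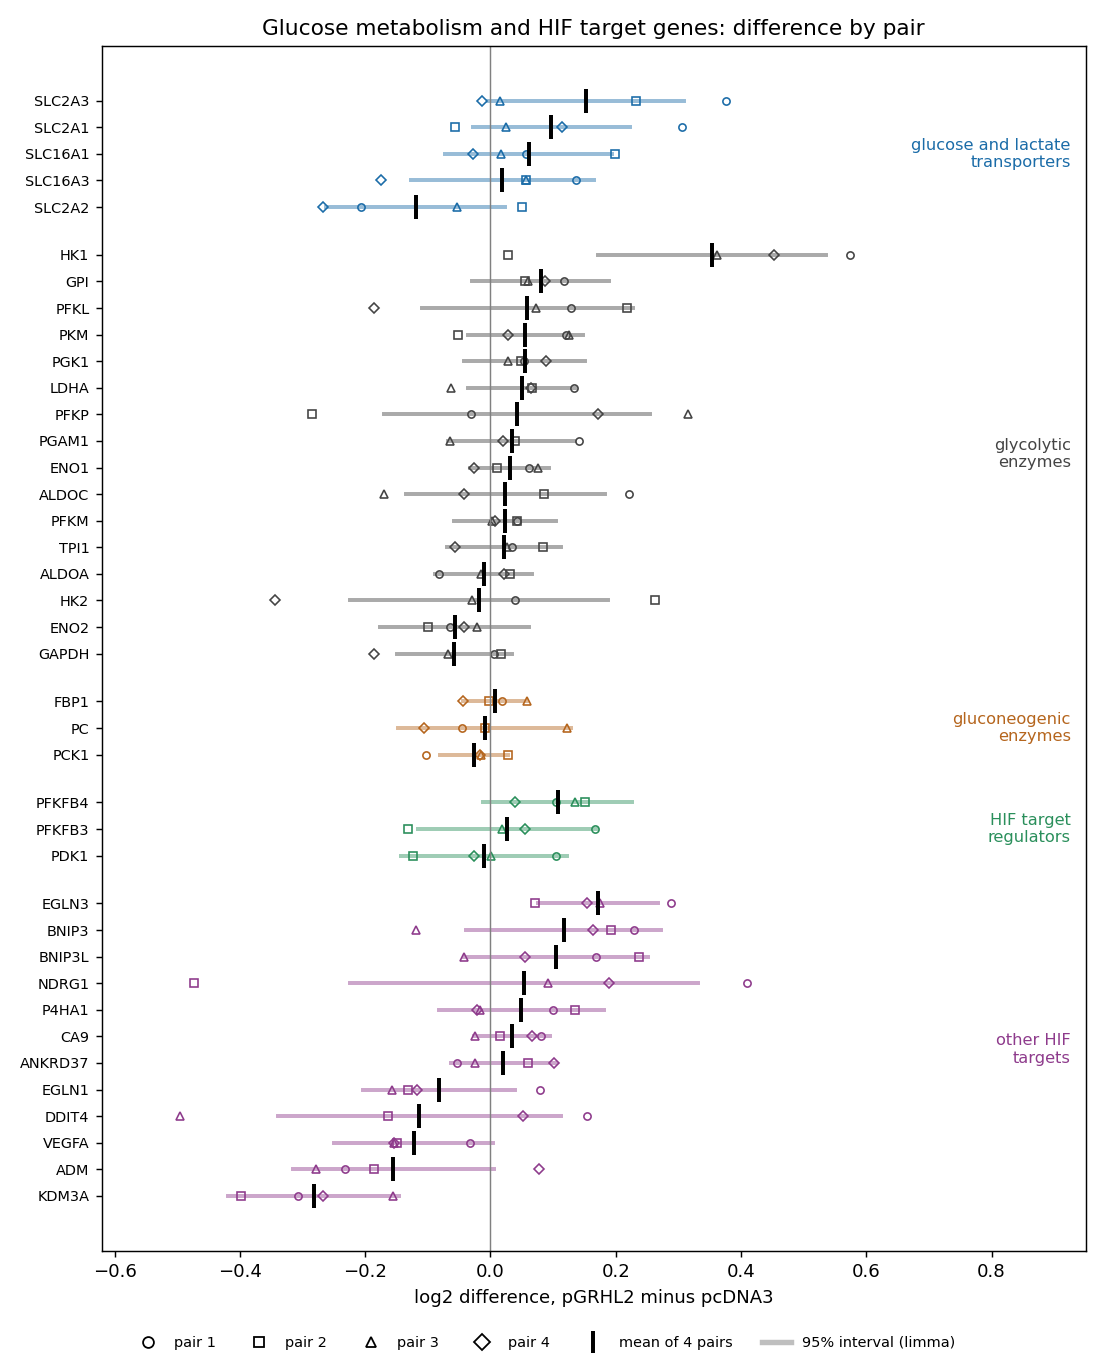
Log2 difference of pGRHL2 minus pcDNA3 (horizontal axis) for the 39 members with values, grouped by role, with open symbols for the 4 pairs, a black tick for their mean and a bar for the 95% interval from limma. The means lie between -0.28 for KDM3A and 0.35 for HK1, and most intervals span 0.

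Among the 5 transporters, 0 passed the test, 4 had a positive mean, and their median difference was 0.06. SLC2A3, a high-affinity glucose transporter, had values of 12.38, 12.31, 12.20 and 12.19 in pGRHL2 libraries 1 to 4 and 12.01, 12.08, 12.19 and 12.20 in pcDNA3 libraries 1 to 4. The libraries were nearly level in pairs 3 and 4, and the groups overlapped through pair 4. The difference of 0.15 ± 0.19 did not pass (adjusted p = 0.327). SLC2A3 has a close paralog, SLC2A14, with which reads may be split.

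SLC2A2, the bidirectional transporter of hepatocytes, had values of 6.64, 6.77, 6.71 and 6.61 with pGRHL2 and 6.84, 6.72, 6.77 and 6.87 with pcDNA3. It was lower with pGRHL2 in 3 of 4 pairs, its groups overlapped, and the difference was -0.12 ± 0.14 (adjusted p = 0.409). The remaining transporters differed by 0.10 ± 0.16 for SLC2A1, the main glucose transporter of tumor cells, 0.06 ± 0.10 for SLC16A1 (MCT1) and 0.02 ± 0.13 for SLC16A3 (MCT4, which exports lactate).

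Of the 16 glycolytic enzymes, 0 passed the test and 12 had a positive mean, with a median difference of 0.03. The groups did not overlap for 5 of the 16, or 31.2%, against 24.0% of all genes. These were HK1, GPI, PFKM and PGK1, higher in 4 of 4 pairs, and ENO2, lower in 4 of 4. HK1 (chr10:69269984-69401884, plus strand), the hexokinase found in most tissues, had values of 6.07, 5.80, 5.97 and 6.01 with pGRHL2 and 5.50, 5.77, 5.61 and 5.56 with pcDNA3. Pair 2 was nearly level and the other pairs were apart, which gave a difference of 0.35 ± 0.23 (27.8% higher, 95% interval 0.17 to 0.54, adjusted p = 0.063). Without replicate 2 the difference was 0.46 and passed (adjusted p = 0.017), whereas without replicate 1, 3 or 4 it was 0.28, 0.35 and 0.32 and did not pass (adjusted p = 0.260, 0.179 and 0.163). HK2, the hexokinase typical of tumors, differed by -0.02 ± 0.25.

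GPI, which converts glucose-6-phosphate to fructose-6-phosphate, had values of 11.21, 11.18, 11.18 and 11.19 with pGRHL2 and 11.09, 11.12, 11.12 and 11.10 with pcDNA3. The groups were separate but close, with a difference of 0.08 ± 0.03 (95% interval -0.03 to 0.19, adjusted p = 0.475). The other enzymes between fructose-6-phosphate and the triose phosphates differed by 0.06 ± 0.17 (PFKL), 0.02 ± 0.02 (PFKM), 0.04 ± 0.26 (PFKP), -0.01 ± 0.05 (ALDOA), 0.02 ± 0.17 (ALDOC) and 0.02 ± 0.06 (TPI1).

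From glyceraldehyde-3-phosphate to lactate, the differences were again small. They were -0.06 ± 0.09 for GAPDH, 0.05 ± 0.03 for PGK1, 0.03 ± 0.08 for PGAM1, 0.03 ± 0.05 for ENO1, -0.06 ± 0.03 for ENO2, 0.06 ± 0.08 for PKM and 0.05 ± 0.08 for LDHA. The 95% interval of GAPDH, often used as a reference gene, ran from -0.15 to 0.03, with 17.6% of its exon bases shared with another gene.

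None of the 3 gluconeogenic enzymes passed, and 1 of 3 had a positive mean. PCK1, which makes phosphoenolpyruvate in the cytosol, had values of 2.01, 2.08, 2.05 and 2.05 with pGRHL2 and 2.11, 2.05, 2.07 and 2.07 with pcDNA3. The groups overlapped, with a difference of -0.03 ± 0.06 (adjusted p = 0.656), at a low level where the transformation may shrink differences. PC had values of 9.14, 9.16, 9.23 and 9.11 against 9.19, 9.17, 9.10 and 9.22, which also overlapped, with a difference of -0.01 ± 0.10 and a 95% interval of -0.15 to 0.13 (adjusted p = 0.968). FBP1 differed by 0.0077 ± 0.04, and 14.8% of its exon bases are shared. G6PC1, which completes gluconeogenesis, differed by -0.01 ± 0.09 and did not pass the test (adjusted p = 0.937).

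The HIF targets that regulate glycolysis act on fructose-2,6-bisphosphate, the activator of phosphofructokinase, or on pyruvate dehydrogenase, and 0 of 3 passed. PFKFB4, a bifunctional enzyme of fructose-2,6-bisphosphate, had values of 7.63, 7.66, 7.65 and 7.60 with pGRHL2 and 7.53, 7.51, 7.51 and 7.56 with pcDNA3. Its groups did not overlap, and the difference of 0.11 ± 0.05 did not pass (adjusted p = 0.369). PFKFB3, whose kinase activity prevails, had values of 7.96, 7.81, 7.88 and 7.90 against 7.79, 7.94, 7.86 and 7.84, with pair 2 opposite to the others and a difference of 0.03 ± 0.12 (adjusted p = 0.899). PDK1, the kinase that inhibits pyruvate dehydrogenase, differed by -0.01 ± 0.09.

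Among the 12 other HIF targets, 0 passed, 7 had a positive mean, and the median difference was 0.03. The largest of these differences was that of KDM3A (chr2:86440647-86492716, plus strand), a histone H3K9 demethylase. Its values were 9.81, 9.76, 9.88 and 9.83 in pGRHL2 libraries 1 to 4 and 10.11, 10.16, 10.04 and 10.09 in pcDNA3 libraries 1 to 4. Every pGRHL2 library lay below every pcDNA3 library. The difference was -0.28 ± 0.10 (-17.8%, 95% interval -0.42 to -0.15), and its adjusted p of 0.052 was just above the threshold. KDM3A passed with robust variance estimation (adjusted p = 0.039) and, in a separate fit, with library weights (adjusted p = 0.026). It also passed among genes with a mean of at least 5 (adjusted p = 0.044) and without the block. KDM3A did not pass in limma fits without a trend of variance on level (adjusted p = 0.102) or with GC, length and level trends removed (0.071). Nor did it pass with equal library medians (0.053) or equal totals without GRHL2 (0.055). Without each replicate in turn, its adjusted p was 0.078 to 0.249.

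EGLN3 (chr14:33924227-34462774, minus strand), a prolyl hydroxylase that HIF itself induces, had values of 4.89, 4.78, 4.83 and 4.82 with pGRHL2 and 4.60, 4.71, 4.66 and 4.67 with pcDNA3. All pGRHL2 libraries lay above all pcDNA3 libraries, by 0.17 ± 0.09 (95% interval 0.08 to 0.27, adjusted p = 0.080). Its paralog EGLN1, the main oxygen sensor of the family, differed by -0.08 ± 0.11, but 55.8% of its exon bases are shared with another gene. VEGFA, the angiogenic growth factor, was lower in 4 of 4 pairs, with values of 9.36, 9.31, 9.30 and 9.30 against 9.40, 9.46, 9.46 and 9.46. Its difference of -0.12 ± 0.06 did not pass (adjusted p = 0.334).

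The remaining HIF targets went in both directions, and their groups overlapped. ADM (adrenomedullin, a vasodilator peptide) differed by -0.15 ± 0.16 and DDIT4 (an inhibitor of mTORC1) by -0.11 ± 0.29. The mitophagy receptors BNIP3 and BNIP3L differed by 0.12 ± 0.16 and 0.10 ± 0.12, P4HA1 (a collagen prolyl hydroxylase) by 0.05 ± 0.08, CA9 by 0.03 ± 0.05 and ANKRD37 by 0.02 ± 0.07. NDRG1 varied most between pairs, with differences of 0.41, -0.47, 0.09 and 0.19, a mean of 0.05 and an SD of 0.38. Members with ACGTG in a promoter had a median difference of 0.02 (13 of 21 positive) and those without it one of 0.04 (9 of 12 positive), a comparison given as a description without a test.

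**Figure D3:**
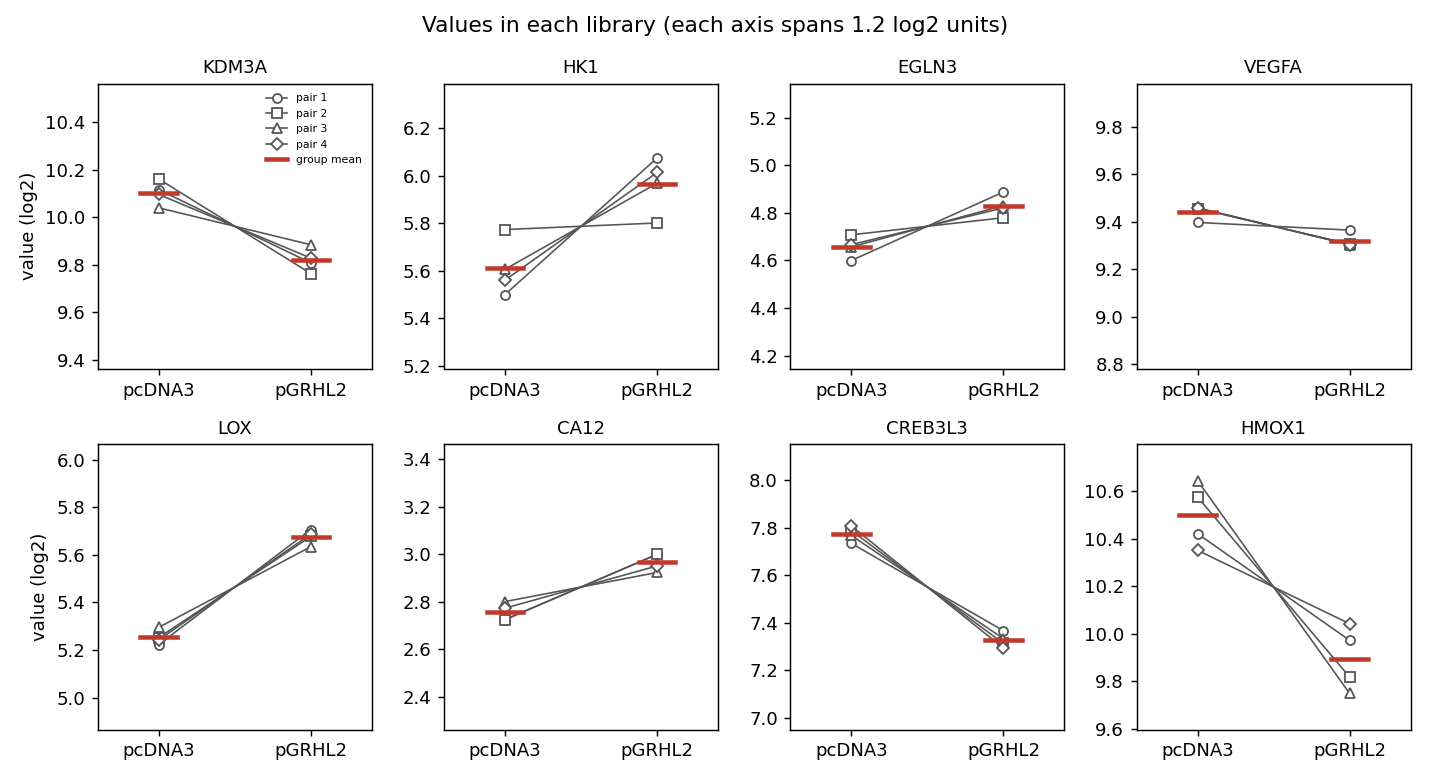
Values (vertical axis, log2) of 4 HIF targets or glycolytic genes of the list (upper row) and of 4 called genes of neighbouring lists (lower row), with lines joining the pcDNA3 and pGRHL2 libraries of 1 replicate number and red bars for group means. KDM3A and VEGFA are lower and HK1 and EGLN3 higher in all 4 pairs without passing the test, whereas LOX and CA12 rose and CREB3L3 and HMOX1 fell.

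The pairs did not contribute alike. Over the 39 members the median difference was 0.08 in pair 1, 0.03 in pair 2, 0.0005 in pair 3 and 0.0066 in pair 4, and 29, 25, 20 and 20 members were positive, respectively. Over all genes the median lay between 0.0008 and 0.0059 in the 4 pairs, and 9046 to 9181 of 17561 were positive. The transporters had a median of 0.14 in pair 1 and of -0.03 in pair 4. The 12 other HIF targets turned over between pairs, with medians of 0.09, -0.06, -0.08 and 0.06 and with 8, 6, 2 and 8 genes positive.

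**Figure D4:**
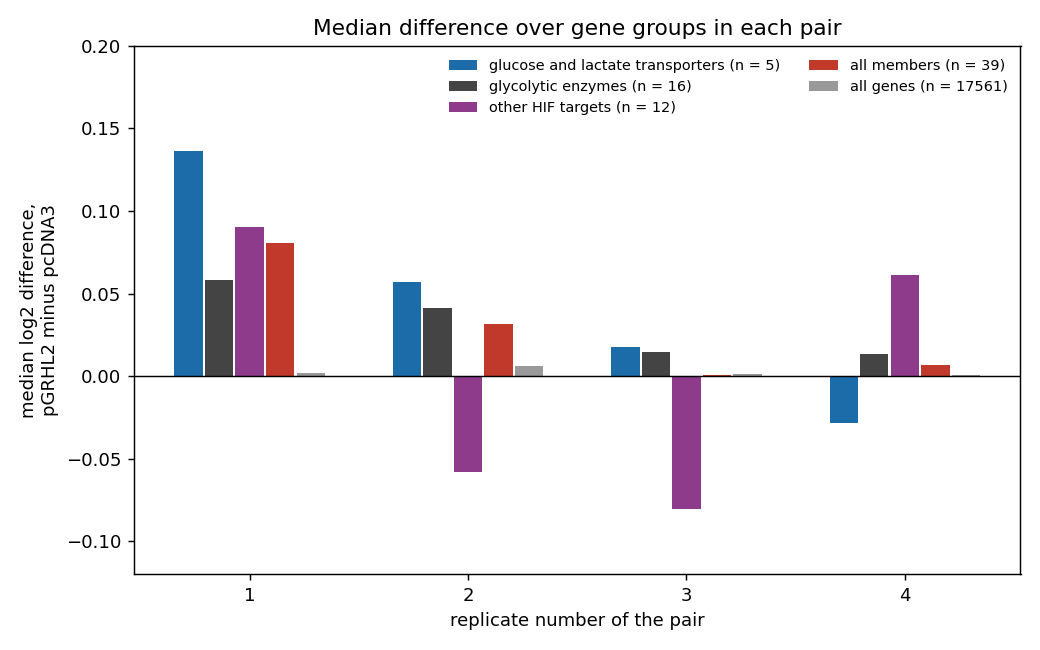
Median log2 difference of pGRHL2 minus pcDNA3 (vertical axis) in each of the 4 pairs (horizontal axis, replicate number) for 3 role groups, all 39 members and all 17561 genes. The medians of the transporters and of all members are largest in pair 1 (0.14 and 0.08), and that of the other HIF targets is below 0 in pairs 2 and 3.

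The transcripts that encode the HIF machinery were measured as well. HIF1A lay at 11.5, EPAS1 (HIF-2 alpha) at 12.2, ARNT at 8.93 and VHL at 7.97. They differed by -0.06 ± 0.19, -0.09 ± 0.08, -0.11 ± 0.19 and 0.04 ± 0.22, respectively, and none passed the test (adjusted p of 0.438 to 0.895). HIF alpha is regulated mainly through protein stability, which was not measured here. Of the 9 genes of this pathway list, 0 passed.

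Of 66 further genes of glucose metabolism and hypoxia, 2 were called higher and 2 lower, against 1.69% and 0.501% of all genes. No call fell among 16 other glucose handling enzymes, 9 glycogen enzymes, 11 genes of pyruvate entry into mitochondria or the 9 genes of the HIF pathway. The calls were LOX, CA12 and HMOX1 among 12 other hypoxia targets and CREB3L3 among 9 genes of the ChREBP axis and of gluconeogenic regulation.

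LOX, the lysyl oxidase that cross-links collagen, rose from 5.22, 5.25, 5.29 and 5.24 in the pcDNA3 libraries to 5.71, 5.68, 5.63 and 5.69 in the pGRHL2 libraries. The groups were well apart, with a difference of 0.42 ± 0.06 (34.1% higher, adjusted p = 0.0028). CA12, a membrane carbonic anhydrase, rose from 2.72, 2.72, 2.80 and 2.77 to 2.999, 2.999, 2.92 and 2.95, by 0.21 ± 0.08 (adjusted p = 0.013) at a low level. CA12 did not pass without replicate 1 (adjusted p = 0.077) or without replicate 2 (adjusted p = 0.062).

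CREB3L3, a liver transcription factor of the endoplasmic reticulum membrane, fell from 7.73, 7.79, 7.77 and 7.81 to 7.37, 7.31, 7.33 and 7.29. This difference of -0.45 ± 0.06 (-26.7%, adjusted p = 0.0054) varied little between pairs. HMOX1, the heme oxygenase that also answers to oxidative stress, fell from 10.42, 10.58, 10.64 and 10.35 to 9.97, 9.82, 9.75 and 10.04, a difference of -0.60 ± 0.27 (-34.1%, adjusted p = 0.018). The HMOX1 groups were separate, but the call was lost without replicate 1, 2 or 3 (adjusted p of 0.072, 0.086 and 0.072). LOX and CREB3L3 passed without any 1 of the 4 replicates, and none of the 4 calls held in a fit without a trend of variance on level (adjusted p of 0.055 to 0.112).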

How the data were processed

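RNA-seq of HepG2 cells gave 1 table of 17561 genes and 8 libraries. HISAT2 2.2.1 was used by the authors for mapping to hg38, and HTSeq 0.9.1 for unstranded counting over exons (minimum alignment quality of 10), followed by the rlog transformation of DESeq2 1.40.2 and division by mean transcript length. The tool versions are those of the submitters' processing notes. The deposited values, though named as FPKM, were log2 values, 3.71% of them negative. A stray character was removed from 1 value. Reads in exon bases that genes share may be lost by such counting. Over 10% of the exon bases were shared in EGLN1, ALDOA, ANKRD37, CA9, GAPDH, FBP1 and ALDOC (GENCODE release 44, of the same build, used also for gene positions).

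In each of the 17561 genes the 4 pair means were equal (tolerance 1e-09), and the step that made them so is not given in the sources used here. Same-numbered libraries are therefore mirror images, the correlation check of pairing is void, and the replicate number was fitted as a block (residual degrees of freedom of 3, against 6 without it). The libraries are described as independent biological replicates. All genes were fitted with limma 3.58.1 (lmFit, eBayes with trend; R 4.3.3), tested on simulated data beforehand, with Benjamini-Hochberg adjustment and a threshold of 0.05. An exact sign-flip test over 4 pairs cannot go below 0.125 and was not used.

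The members and the other lists were chosen with earlier results of these data known. By rule, values in every library are given for members called and for the 2 members of each role group with the largest absolute difference, other members by difference and SD, and other listed genes by value where called or where they complete a step (HIF1A, EPAS1, ARNT, VHL, G6PC1). The library values of VEGFA, the pairs of NDRG1, and PCK2, G6PC3, HKDC1, ENO3 and NR3C1 were added after the values were seen. Of 71 other listed genes, 66 had values, and some further genes that the lists first held are not reported here. HK3, PGAM2, LDHC, SLC16A7 and GYS2 were not analysed here. Promoter sequences came from RefSeq. The alternatives were no block, robust eBayes, no trend, arrayWeights, equal library medians, equal totals without GRHL2, a mean of at least 5, removal of GC, length and level trends (splines with 5 degrees of freedom), leaving out each pair, and an adjusted p under 0.01.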

Additional observations from a re-analysis of the deposited data

Results flagged for a closer look

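In 49 results examined, 1 of the 4 pairs stood apart from the others by Dixon's criterion for 4 values in 2, and about 1 in 20 such groups would do so by chance. For VEGFA it was pair 1, where the difference was -0.032 (log2), against -0.15 in each of the other pairs. For EGLN1 it was also pair 1, with 0.079 against differences between -0.16 and -0.12.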

How the results depend on the processing

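Fitted without the replicate block, 3248 genes were called (1821 higher, 1427 lower) in place of 385 (297 higher, 88 lower), and among the members 4 were called higher (HK1, GPI, PFKFB4, EGLN3) and 2 lower (VEGFA, KDM3A) in place of 0 and 0. That fit takes mirrored libraries as independent. The other settings kept the replicate block. No intensity trend left 6 calls. With arrayWeights there were 724, with 2 members higher (HK1, EGLN3) and 1 lower (KDM3A). Equal totals without GRHL2 gave 588 and 1 member higher (HK1). Robust eBayes called 1 member lower (KDM3A). A mean of at least 5, with fewer genes tested, gave 144 (63 higher, 81 lower) and 1 member lower (KDM3A). Removal of the trends gave 218, and an adjusted p under 0.01 gave 87. Without 1 replicate there were 87 to 224 calls and 0 to 1 members higher (HK1, without replicate 2). The causes of these changes were not tested. The median difference of the members stayed positive, at 0.0169 to 0.0427.

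Of 345 member values under these settings, leave-outs aside, 321 kept their direction and side of the threshold, 12 newly passed and 12 changed sign. A sign could change only with arrayWeights, equal medians, equal totals or removal of the trends. The other settings leave the differences as they were, and the stricter threshold can add no call, so the count kept overstates stability. Of 156 leave-out values, 140 kept both, 1 newly passed and 15 changed sign. With arrayWeights, HK2 was 0.02 and PDK1 0.0054. With equal totals, ALDOA was 0.0027, PC 0.0041 and PDK1 0.0026, and G6PC1, which is no member, was 0.0035. With the trends removed, HK2 was 0.0011, PFKM -0.0037, ENO1 -0.0317, FBP1 -0.0178, PDK1 0.0186, CA9 -0.0003 and ANKRD37 -0.0051. Without 1 replicate, the ranges across 0 were -0.020 to 0.0836 (SLC16A3), -0.025 to 0.0128 (ALDOA), -0.0422 to 0.0881 (ALDOC), -0.0017 to 0.0671 (PGAM1), -0.0534 to 0.023 (PC), -0.0194 to 0.0801 (PFKFB3), -0.0641 to 0.23 (NDRG1), -0.0495 to 0.0266 (PDK1), -0.0567 to 0.1006 (VHL), -0.0482 to 0.1517 (PFKP), -0.0091 to 0.0248 (FBP1), -0.2023 to 0.0144 (DDIT4), -0.0465 to 0.0286 (G6PC1), -0.1114 to 0.0906 (HK2) and -0.0062 to 0.0455 (ANKRD37). VHL and G6PC1 are no members and are not part of the counts of sign changes. Depth was unknown, and differences of weakly expressed members may be understated by the transformation.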

Other observations

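ENO3, PCK2 and NR3C1 were among the 19 of 66 other listed genes (28.8%, against 24.0% of all genes) whose groups did not overlap. ENO3, the enolase named for muscle, lay at 9.35 and was lower with pGRHL2 in 4 of 4 pairs, a difference of -0.31 ± 0.14 (limma, adjusted p = 0.056), beside -0.06 ± 0.03 for ENO2 and 0.03 ± 0.05 for ENO1. PCK2 was higher in 4 of 4 pairs, by 0.15 ± 0.08 (adjusted p = 0.221). NR3C1, the glucocorticoid receptor that the dexamethasone of the medium binds, was lower in 4 of 4 pairs, a difference of -0.22 ± 0.06 (adjusted p = 0.090). None of these passed the test, and they were chosen after their values were seen.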
